A study of Mus musculus with 4 samples.

Results

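The 33 genes described here make cholesterol and fatty acids, take up lipid or store it. They were taken as a list of symbols sorted by role: 11 enzymes of sterol synthesis, 3 regulators, 8 enzymes of fatty acid synthesis and 11 genes of lipid uptake and storage. All 33 matched a probe set, out of 23185 named probe sets on the array. The cells were airway smooth muscle cells, GFP-positive and DsRED-negative, sorted from lungs of adult Acta2-hrGFP;Cspg4-DsRED mice. All groups carried both transgenes, so green cells had used the Acta2 promoter and cells using the Cspg4 promoter were excluded. VAS mice ate an ordinary vitamin A-sufficient diet (15 IU/g). VAD mice ate a vitamin A-deficient diet (under 0.1 IU/g), for 3 days in one statement of the protocol and 5 days in another. CTR mice received a powdered vitamin A-sufficient diet with corn oil vehicle for 3 days, and BMS mice the same powdered diet with an antagonist of all retinoic acid receptors (BMS, 5 mcg/g) for 3 days. Each group is 1 array of RNA pooled from 3 mice, so no group has a spread, and a difference below is one array minus another on the log2 scale.

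Cells make cholesterol from acetyl-CoA through the mevalonate pathway. When sterol in the endoplasmic reticulum is low, the protein SCAP escorts the SREBP transcription factors (genes Srebf1 and Srebf2) to the Golgi, where they are cut and released to switch on genes of sterol and fatty acid synthesis, and the protein INSIG1 holds them back when sterol is plentiful. Fatty acids are either made from citrate by ACLY, ACACA and FASN or taken up through lipoprotein lipase and CD36, and they are stored as triglyceride in droplets coated by perilipins. In lung, alveolar type 2 cells use these pathways to make surfactant lipid, and macrophages, endothelium and lipid-storing fibroblasts also express several of the genes. In bulk RNA, fewer cells of a type and less RNA per cell cannot be told apart.

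The promoters of Hmgcs1, Msmo1, Nsdhl and Sc5d are shown first, because these are the 4 sterol enzymes whose VAD and BMS levels both lay above both controls. The 250 bases before the start site are printed on the gene's strand, from the RefSeq promoter table of build GRCm38.p6, at chr13:119690101-119690350 (plus strand), chr8:64733579-64733828 (minus), chrX:72918271-72918520 (plus) and chr9:42264301-42264550 (minus). Capitals mark matches, on either strand, to the sterol regulatory element as TCACNCCAC, to the CCAAT box bound by NF-Y, a factor that works beside SREBP at sterol genes, and to the E-box CACGTG.
Hmgcs1: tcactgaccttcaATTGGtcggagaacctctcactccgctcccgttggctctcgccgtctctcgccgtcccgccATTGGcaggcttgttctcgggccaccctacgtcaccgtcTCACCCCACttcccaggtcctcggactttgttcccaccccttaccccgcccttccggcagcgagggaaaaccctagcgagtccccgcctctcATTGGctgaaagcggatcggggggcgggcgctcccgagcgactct
Msmo1: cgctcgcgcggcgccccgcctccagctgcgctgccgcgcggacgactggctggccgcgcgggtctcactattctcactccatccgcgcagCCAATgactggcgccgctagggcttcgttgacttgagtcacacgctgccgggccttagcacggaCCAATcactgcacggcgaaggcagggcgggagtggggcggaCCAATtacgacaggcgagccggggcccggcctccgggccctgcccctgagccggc
Nsdhl: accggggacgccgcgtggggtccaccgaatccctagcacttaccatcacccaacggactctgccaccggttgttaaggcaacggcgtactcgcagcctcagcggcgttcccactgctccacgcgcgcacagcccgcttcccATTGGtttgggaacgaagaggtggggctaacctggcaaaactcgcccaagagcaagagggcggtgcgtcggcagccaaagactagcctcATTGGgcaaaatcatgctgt
Sc5d: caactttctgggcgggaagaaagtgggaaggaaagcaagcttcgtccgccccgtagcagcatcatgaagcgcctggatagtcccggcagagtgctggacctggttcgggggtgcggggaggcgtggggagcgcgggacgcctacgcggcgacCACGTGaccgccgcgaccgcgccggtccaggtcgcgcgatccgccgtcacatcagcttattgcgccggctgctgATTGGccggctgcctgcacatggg

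In the Hmgcs1 window, TCACNCCAC was found once, on the gene's strand, beginning 137 bases before the start, with 3 CCAAT boxes on the opposite strand. Msmo1 had 3 CCAAT boxes on its own strand, Nsdhl had 2 and Sc5d had 1 on the opposite strand, and Sc5d had 1 CACGTG. No printed motif overlaps another. Of the 33 genes, 23 were in the table, with 30 start sites. Fdps, Fdft1, Sqle, Scd1, Scd2, Fads1, Lpl, Fabp4, Dgat1 and Dgat2 were not matched. A CCAAT box stood at 1 or more start sites of 8 of 8 matched sterol enzymes and 3 of 3 regulators, 1 of 5 fatty acid synthesis enzymes (Fasn) and 4 of 7 uptake and storage genes, where 37.5% of all 27025 genes in the table had one. CACGTG stood at Sc5d, Dhcr7, Insig1 and Lipe (6.86% of all genes), and TCACNCCAC at Hmgcs1 alone among the 23 (1.22% of all genes). These matches describe the letters of the windows.

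Sterol synthesis enzymes were on balance slightly higher on the arrays of the deficient diet and of the antagonist, by a median of 0.25 in VAD against VAS and 0.20 in BMS against CTR over all 11 measured, while the medians over all named genes were -0.0077 and -0.0039. The BMS median was 0.12 against VAS in place of CTR and 0.33 over the 7 enzymes past the filter, and the VAD median was 0.34 against CTR. In VAD, 7 of 11 were above VAS, where 48.3% of all named genes were. In BMS, 10 of 11 were above CTR, where 48.9% were. Hmgcs1, Idi1, Sqle, Msmo1, Nsdhl and Sc5d were above their control in both experiments, 6 of 11, against 23.6% of all named genes. The controls differed too: CTR was above VAS in 3 of 11, with a median of -0.08, where 49.9% of all named genes were above. CTR was the lowest array for 7 of 11 (Fdps, Fdft1, Sqle, Msmo1, Nsdhl, Sc5d and Dhcr7). The share of all named genes lowest in CTR was not counted, so these 7 have no background to be read against. Beside the sterol enzymes, 10 of 10 smooth muscle markers were higher in VAD than in VAS (median 0.19), but 0 of 10 in BMS than in CTR (median -0.17). Of 9 adventitial fibroblast markers, 9 were higher in BMS than in CTR (median 1.21), but 2 in VAD than in VAS (median -0.11). The part of either cell type was not tested. No sterol enzyme reached a 1.5-fold difference in any of the 3 comparisons.

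Hmgcs1 (Entrez gene 208715), the synthase that makes HMG-CoA at the start of the mevalonate pathway, stood at 6.80 in VAS, 7.30 in VAD, 6.80 in CTR and 7.00 in BMS. The control arrays were level, and both other arrays were higher, by 0.50 in VAD and 0.20 in BMS. Msmo1 (Entrez gene 66234), a methylsterol oxidase, stood at 7.67, 8.07, 7.63 and 7.81 in the same order. Nsdhl (Entrez gene 18194), which acts with it to remove methyl groups from the sterol ring, stood at 7.70, 7.95, 7.39 and 7.87. Sc5d (Entrez gene 235293), a late desaturase of the pathway, stood at 7.88, 8.14, 7.80 and 8.001. In each of these 4 genes VAD was the highest array, BMS the next, and neither overlapped the controls. Over all 33 genes, 6 had VAD and BMS both above both controls, where 13.6% of all named genes did, and 2 had both below, where 15.2% did.

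Sqle (Entrez gene 20775), squalene epoxidase and a control point of the pathway, stood at 7.25 in VAS, 7.63 in VAD, 6.85 in CTR and 7.18 in BMS. It was 0.38 and 0.33 higher within the experiments, but the controls themselves were 0.40 apart and BMS lay below VAS. Fdft1, squalene synthase, stood at 7.41, 7.40, 6.96 and 7.29, so CTR was low and the other 3 arrays were close. Dhcr7, which makes the last reduction to cholesterol, stood at 6.90, 6.66, 6.58 and 7.02, lower in VAD by -0.24 and higher in BMS by 0.44. Idi1, Fdps, Lss and Cyp51 were below the filter on low values (6.05, the median of all named values) on every array, and are read less firmly. Fdps, farnesyl diphosphate synthase, stood at 6.01, 5.61, 5.51 and 5.60, with VAS the high array. Lss, lanosterol synthase, stood at 4.78, 5.22, 5.29 and 4.98, opposite in sign between the experiments. Idi1, an isomerase of the isoprenoid steps, stood at 5.35, 5.38, 5.68 and 5.77, and Cyp51, lanosterol demethylase, at 5.71, 5.64, 5.68 and 5.83.

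**Figure D1:**
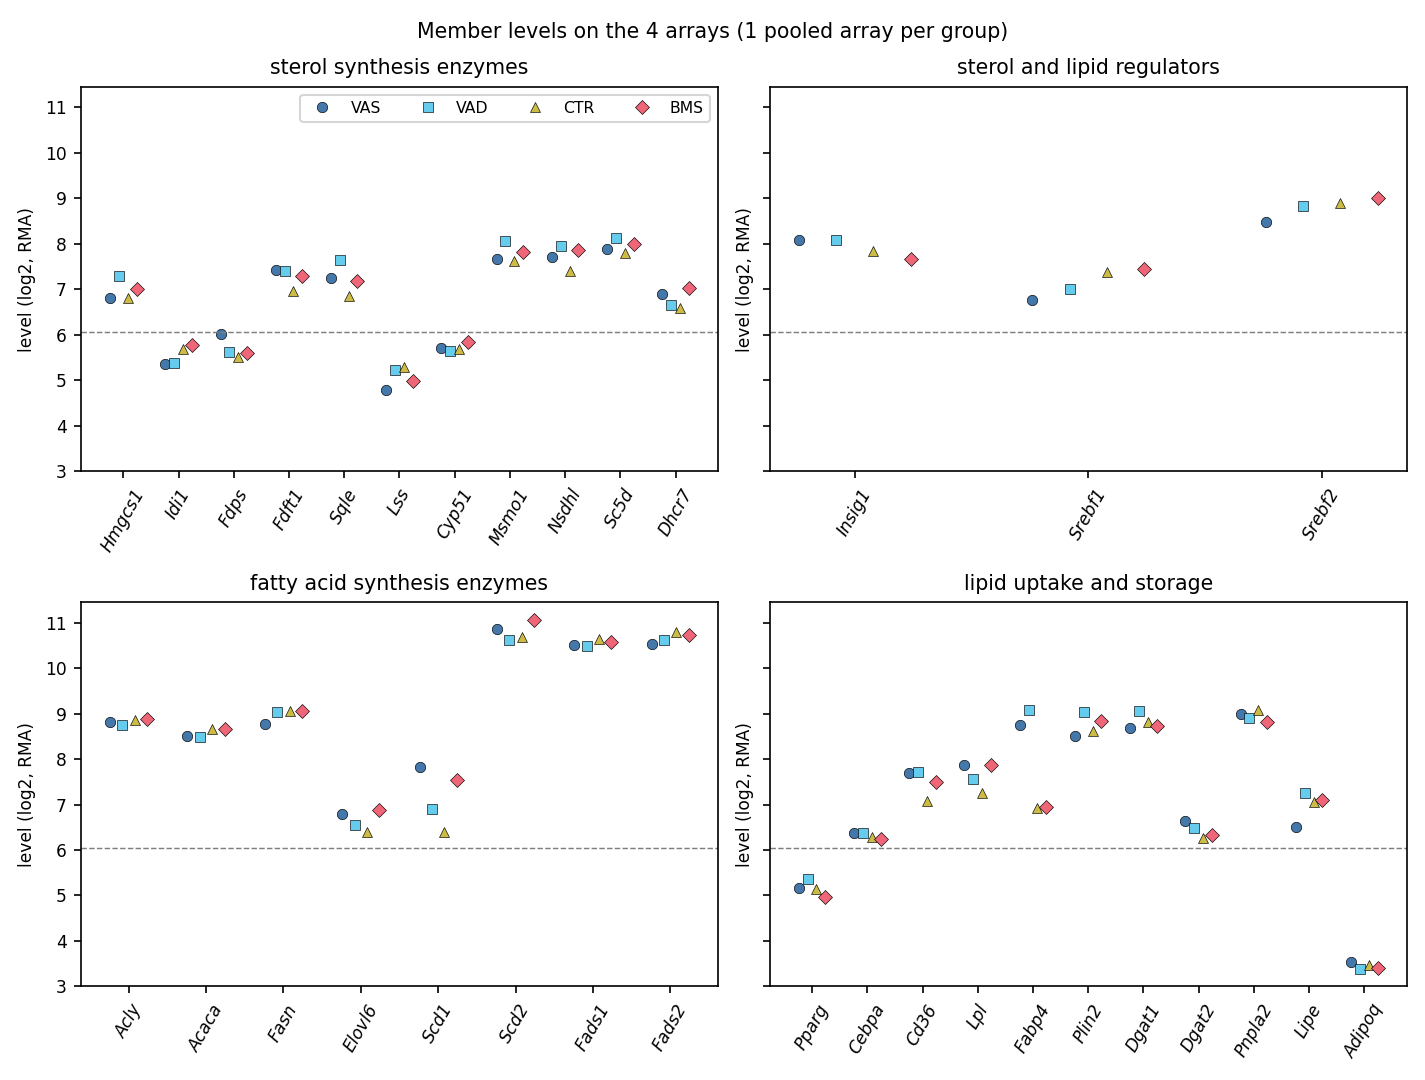
Levels of the 33 genes (log2, RMA) on the VAS, VAD, CTR and BMS arrays, 1 symbol per array, in 4 panels by role; the dashed line is the filter at 6.05. Hmgcs1, Msmo1, Nsdhl and Sc5d have VAD and BMS above both controls, Scd1 is low in CTR and VAD, and Fabp4 is low on both arrays of the antagonist experiment.

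The lists of other sterol genes had medians nearer to 0 than the sterol enzymes in VAD. In BMS the other synthesis genes did too, but uptake and sensing genes (0.18) lay close to the sterol enzymes (0.20). The differences between the lists were not tested. Of all named genes, 48.3% were above 0 in VAD and 48.9% in BMS, the shares to set beside each list count here. The 9 other sterol synthesis genes matched had a median of 0.07 in VAD and 0.07 in BMS, with 5 of 9 above 0 in each and 0 past 1.5-fold. Mvk, mevalonate kinase, stood at 7.59, 7.28, 7.10 and 7.45 in VAS, VAD, CTR and BMS, lower in VAD by -0.31 and higher in BMS by 0.35. Lbr, a sterol reductase of the nuclear envelope, was 0.36 higher in VAD and differed by -0.14 in BMS. Of 12 genes of cholesterol uptake and sterol sensing, 6 were above 0 in VAD, with a median of -0.0034, and 11 were above 0 in BMS, with a median of 0.18. Npc2, which carries cholesterol out of lysosomes, stood at 9.13, 8.93, 8.69 and 9.11, and Lipa, which frees it from its esters there, at 9.33, 9.34, 8.79 and 9.15, so that CTR was the low array for both. Lrp1, a lipoprotein receptor, stood at 10.76 in VAS and between 11.12 and 11.17 on the other 3 arrays. LXR targets and efflux genes, which export cholesterol when oxysterols are high, had medians of 0.02 and 0.13, with 5 and 6 of 7 above 0. Nr1h3, which encodes LXR alpha, was 0.25 higher in VAD and differed by -0.26 in BMS. Apoc1, an apolipoprotein, differed by -0.35 in VAD and by 0.17 in BMS, and Pltp, which transfers phospholipid, was 0.38 higher in BMS and differed by 0.02 in VAD.

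For each regulator the controls differed by more than VAD from VAS or BMS from CTR. Srebf1 (Entrez gene 20787) stood at 6.76 in VAS, 7.00 in VAD, 7.38 in CTR and 7.44 in BMS. Srebf2 (Entrez gene 20788), whose product acts mainly on sterol genes, stood at 8.49, 8.82, 8.90 and 9.01. For both genes the order was VAS, VAD, CTR, BMS from low to high, and the controls differed by 0.61 and 0.41, more than VAD from VAS (0.23 and 0.33) or BMS from CTR (0.07 and 0.12). Insig1, itself a sterol target and the brake on SREBP release, stood at 8.09, 8.09, 7.84 and 7.67, so it was level across the diets and lower by -0.17 in BMS.

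Among the fatty acid synthesis enzymes, Scd1 had the largest difference in each of the 3 comparisons. Scd1 (Entrez gene 20249), the desaturase that makes oleate from stearate, stood at 7.82 in VAS, 6.91 in VAD, 6.39 in CTR and 7.54 in BMS. It was 1.87-fold lower in VAD than in VAS, 2.22-fold higher in BMS than in CTR, and 2.68-fold lower in CTR than in VAS. The controls stood farther apart than either pair within an experiment. Set against the other control, both signs turned: VAD was 0.52 above CTR and BMS differed from VAS by -0.27. Elovl6, which lengthens palmitate to stearate and so feeds SCD1, stood at 6.80, 6.54, 6.39 and 6.88, in the same directions by smaller amounts, -0.25 in VAD, 0.49 in BMS and -0.40 between the controls. Scd2, a paralog of Scd1, stood at 10.85, 10.63, 10.70 and 11.07, with differences of -0.23, 0.37 and -0.16. Scd1 and Scd2 are similar in sequence, and whether their probes cross-hybridise was not tested.

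Acly and Acaca differed little between the arrays, and Fasn was lower in VAS than on the others. Acly, which makes cytosolic acetyl-CoA from citrate, stood at 8.81, 8.74, 8.85 and 8.89 in VAS, VAD, CTR and BMS. Acaca, acetyl-CoA carboxylase, stood at 8.51, 8.48, 8.67 and 8.66. Fasn, fatty acid synthase, stood at 8.77 in VAS and between 9.04 and 9.06 on the other 3 arrays. Fads1 and Fads2, which desaturate polyunsaturated fatty acids, ranged from 10.50 to 10.65 and from 10.54 to 10.80. The list medians were -0.05 in VAD and 0.10 between the controls, and in BMS 0.02, which turned to -0.0068 with cyclic loess and -0.0081 with a further quantile normalization. Of the 20 other fatty acid synthesis and activation genes matched, 8 were above 0 in VAD (median -0.02) and 16 in BMS (median 0.08), where 48.3% and 48.9% of all named genes were. Me1, malic enzyme, which supplies NADPH, stood at 8.77 in VAS and between 8.17 and 8.18 on the other 3 arrays. Acss2, which makes acetyl-CoA from acetate, was 0.34 higher in BMS. Acsl4, which activates long-chain polyunsaturated fatty acids, stood at 8.21, 8.45, 7.08 and 7.22, low on both arrays of the antagonist experiment. How many of all named genes were so was not counted.

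**Figure D2:**
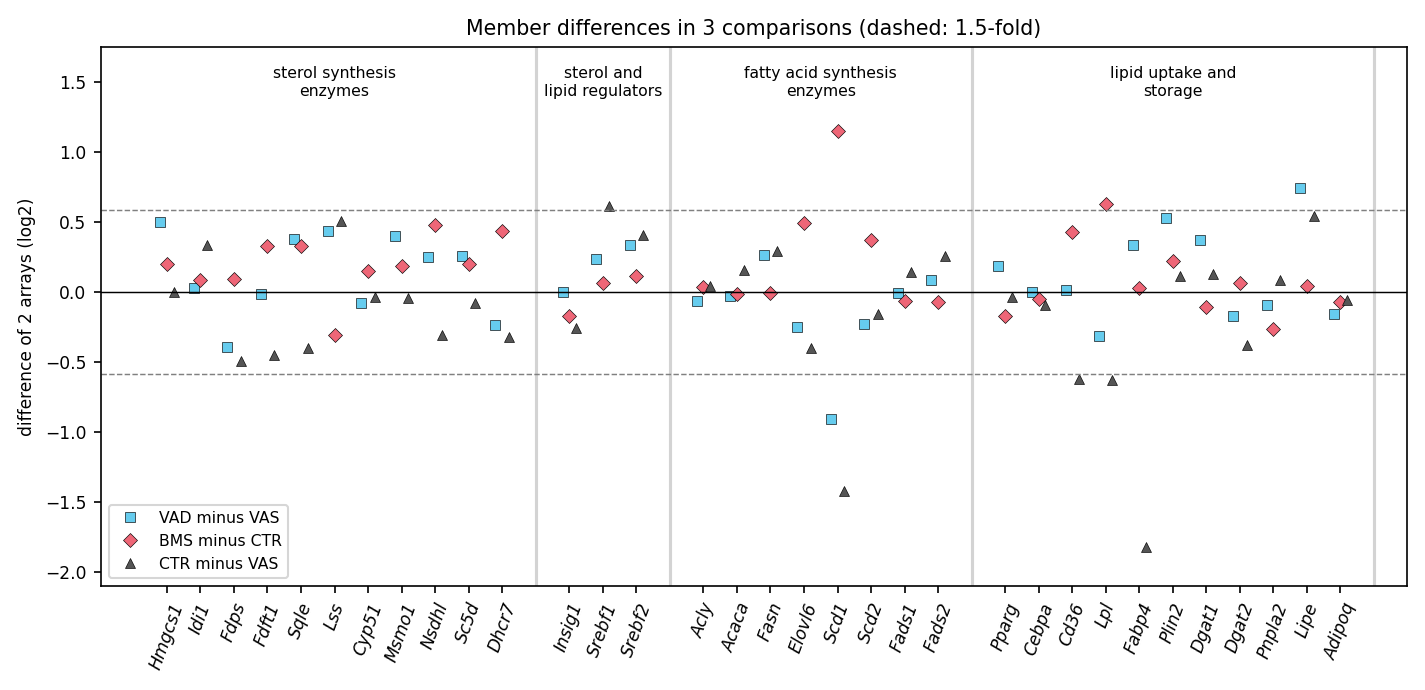
Differences of 2 arrays (log2) for each of the 33 genes: VAD minus VAS (squares), BMS minus CTR (diamonds) and CTR minus VAS (triangles), with dashed lines at 1.5-fold. Scd1 lies at -0.91, 1.15 and -1.42, Fabp4 at -1.82 between the controls, and most other symbols lie between the dashed lines.

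Among lipid uptake genes, Fabp4 was low on both arrays of the antagonist experiment, and Cd36 and Lpl were lowest in CTR. Fabp4 (Entrez gene 11770), a fatty acid carrier of adipocytes, macrophages and capillary endothelium, stood at 8.75 in VAS, 9.08 in VAD, 6.92 in CTR and 6.96 in BMS. The experiments did not overlap and were 3.54-fold apart in the controls, while BMS and CTR differed by 0.03. The share of all named genes whose experiments did not overlap was not counted. Cd36 (Entrez gene 12491), a fatty acid receptor, stood at 7.70, 7.71, 7.07 and 7.51, and Lpl (Entrez gene 16956), lipoprotein lipase, at 7.88, 7.57, 7.25 and 7.88. CTR was the lowest array for both. Lpl was 1.55-fold higher in BMS than in CTR and stood level with VAS. Pparg, the nuclear receptor that drives fat storage, was below the filter on every array, between 4.96 and 5.36, and Cebpa, its partner in adipocytes, ranged from 6.24 to 6.38. Adipoq, which encodes adiponectin of mature adipocytes, ranged from 3.38 to 3.54. In the adipocyte marker list, 7 of the 8 matched genes were below the filter on all arrays, Slc2a4 being the exception, and the summed unlogged level of the list ran from 424 to 452.

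Storage and breakdown genes were higher in VAD in several cases. Plin2 (Entrez gene 11520), the coat protein of small lipid droplets, stood at 8.50, 9.03, 8.62 and 8.84 in VAS, VAD, CTR and BMS. Lipe (Entrez gene 16890), hormone-sensitive lipase, stood at 6.51, 7.26, 7.06 and 7.10. In both genes VAD and BMS lay above both controls. For Lipe, however, VAS alone was low, and BMS differed from CTR by 0.04. Dgat1, which completes triglyceride, stood at 8.69, 9.07, 8.83 and 8.72, with VAD the high array. Dgat2, with the same reaction, stood at 6.65, 6.48, 6.27 and 6.33. Pnpla2, the lipase that starts triglyceride breakdown, stood at 8.998, 8.90, 9.08 and 8.81, lower by -0.09 in VAD and -0.27 in BMS. The list medians were 0.02 in VAD, 0.03 in BMS and -0.06 between the controls.

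Genes of fatty acid oxidation and PPAR targets went both ways in VAD against VAS. Of 15 matched, 9 were above 0 (median 0.13), where 48.3% of all named genes were. Of the 12 past the filter, 3 were at least 1.5-fold higher and 1 lower, where 1.45% and 2.11% of all genes past the filter were. Against CTR in place of VAS, Pdk4 was 0.57, Angptl4 0.31 and Cpt1a 0.05 higher, all short of 1.5-fold. Pdk4, which spares glucose by blocking pyruvate dehydrogenase, stood at 8.01, 8.90, 8.33 and 8.18. Angptl4, an inhibitor of lipoprotein lipase, stood at 8.89, 9.70, 9.39 and 8.998. Cpt1a, the entry enzyme of mitochondrial oxidation, stood at 9.88 in VAS and between 10.31 and 10.49 on the other arrays. Ppargc1a, a coactivator of oxidative genes, went the other way, with 7.75 in VAS and 7.00, 6.85 and 6.61 on the others. In BMS, 9 of 15 were above 0 (median 0.08), where 48.9% of all named genes were, and 0 passed 1.5-fold. Triglyceride assembly and droplet genes, 24 matched, had medians of 0.05 and -0.02. Their largest differences were in Cidea, a droplet protein, at -0.63 in VAD, and Agpat2, an acyltransferase of triglyceride assembly, at 0.53 in BMS. Fatty acid binding and transport genes, 11 matched, had medians of 0.02 and 0.12. Fabp7, the brain-type carrier, was lower in both (-0.79 and -0.89), and Slc27a1, a fatty acid transporter, was 0.70 higher in CTR than in VAS. Fabp1, the liver-type carrier, differed by 0.80 and -0.81. It stood at 5.71, 6.51, 5.05 and 4.24, so only VAD reached the filter. Adipocyte genes, 11 matched, had medians of -0.04 and 0.01. Among them Klf15, a transcription factor that glucocorticoids induce, stood at 6.61, 6.70, 7.64 and 6.92, and Adipor2, an adiponectin receptor, differed by 0.15 in both experiments.

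**Figure D3:**
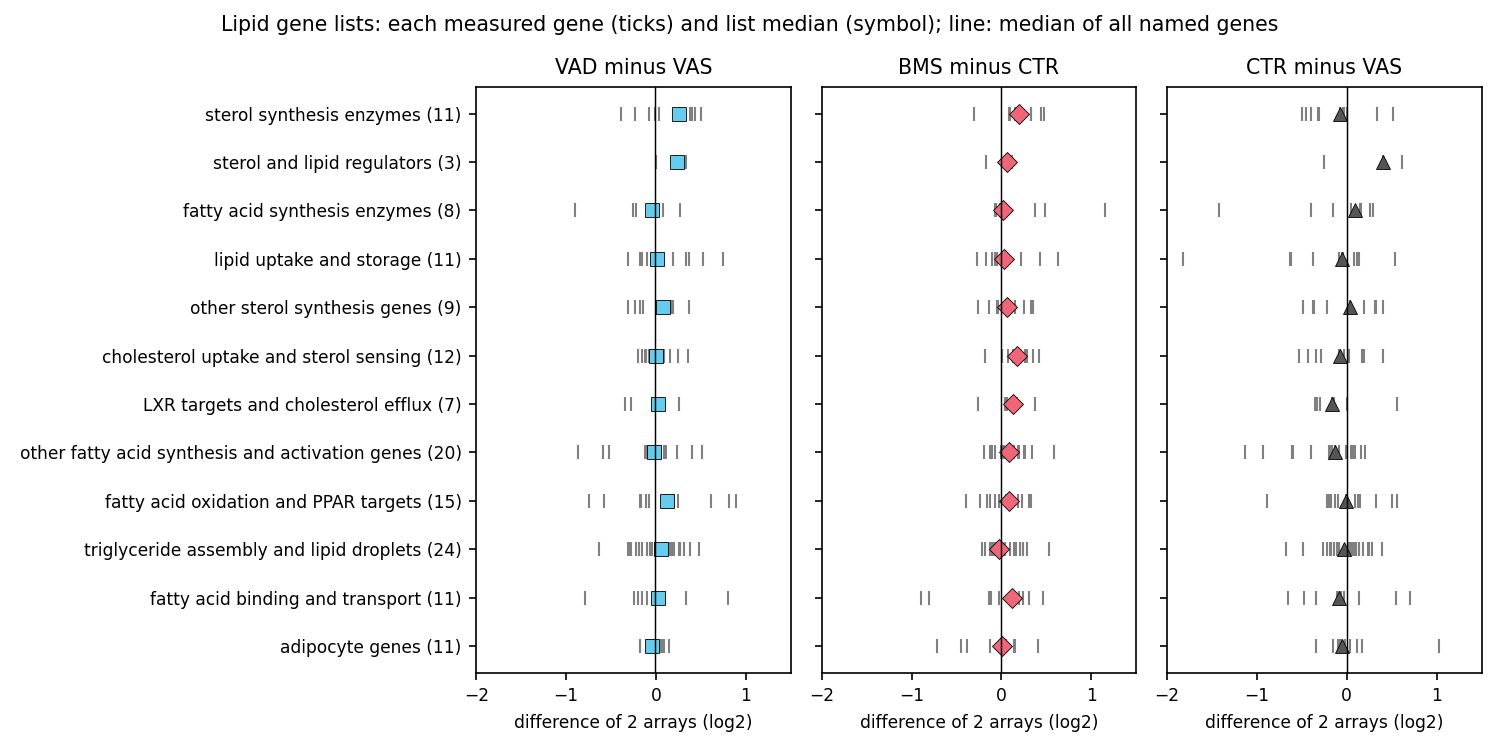
Each tick is the difference of 2 arrays (log2) of 1 measured gene, the symbol is the list median, the vertical line is the median of all named genes, and numbers in brackets count the measured genes. Sterol synthesis enzymes have medians of 0.25 and 0.20 in VAD and BMS. The other sterol synthesis genes have 0.07 and 0.07, and cholesterol uptake and sterol sensing genes -0.0034 and 0.18.

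Counts past a fixed fold were few. In VAD against VAS, 27 of the 33 genes passed the filter, of which 1 was at least 1.5-fold higher (Lipe) and 1 lower (Scd1), where 1.45% and 2.11% of all 12395 genes past the filter were. At 2-fold, 0 were higher and 0 lower, where 0.234% and 0.42% were. In BMS against CTR, 2 were at least 1.5-fold higher (Scd1 and Lpl) and 0 lower, against 3.11% and 1.89%. At 2-fold Scd1 alone was higher and 0 were lower, against 1.07% and 0.282%. Between the controls, CTR against VAS, 1 was 1.5-fold higher (Srebf1) and 4 were lower (Scd1, Fabp4, Cd36 and Lpl), against 2.66% and 5.87%. At 2-fold, 0 were higher and Scd1 and Fabp4 were lower, against 0.323% and 1.71%. In this comparison 14 of 33 were above 0, against 49.9% of all named genes. CTR against VAS shares an array with each of the other comparisons, so its counts are not independent of theirs, while VAD against VAS and BMS against CTR share none. Against the other control, VAD stood 0.20 above CTR for Lipe and BMS level with VAS for Lpl, so both calls rest on the control used.

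The 1 fit with more than 1 array per side set VAD and BMS against VAS and CTR, with the experiment as a block and 1 residual degree of freedom. By limma with Benjamini-Hochberg adjustment, 0 of 27 genes passed an adjusted p of 0.05, where 0% of the 12395 genes did. At an unadjusted p of 0.05, 2 of 27 passed, Sqle and Nsdhl, where 3.84% of all genes did. The limma estimate for Sqle was 0.36 (SE 0.13, adjusted p = 1), higher in 2 of 2 experiments. For Nsdhl it was 0.37 (SE 0.14, limma adjusted p = 1), and for Plin2 0.37 (SE 0.15, limma adjusted p = 1), each higher in 2 of 2 experiments. For Scd1 it was 0.12 (SE 0.48, limma adjusted p = 1), with the experiments opposed. With 1 residual degree of freedom the spread behind these errors is poorly known.

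Markers of other cells differed between the arrays beside these genes. All 10 smooth muscle markers passed the filter on these arrays, with Tagln between 12.04 and 12.28 and Acta2 between 11.95 and 12.12. All 10 were higher in VAD than in VAS (median 0.19) and lower in BMS than in CTR (median -0.17). Their summed unlogged level was 23813 in VAS, 27766 in VAD, 23339 in CTR and 21265 in BMS. Beside Scd1, low in CTR and VAD, stood Sftpc, surfactant protein C, at 10.86 in VAS, 9.28 in VAD, 7.32 in CTR and 9.15 in BMS, and Sftpa1 at 8.26, 7.18, 6.71 and 6.74. Of the 10 alveolar type 2 markers, led by Sftpc and Etv5, 9 were lower in VAD than in VAS and 8 higher in BMS than in CTR. Of these 10, 3 (Sftpd, Lamp3 and Napsa) were below the filter, and the summed unlogged level was 3132, 1569, 1095 and 1581. In BMS against CTR, Sftpc alone of the 7 past the filter was at least 1.5-fold higher (1.82). Sftpa1 differed by 0.03 and Sftpb by -0.06, and the list median was 0.12. Hbb-b1, a globin gene, stood at 9.69, 7.69, 7.77 and 9.72. Of 8 red blood cell markers listed, 4 were matched, and Hbb-b1 alone of these passed the filter. Of the 4, 1 was higher in VAD than in VAS and 4 were higher in BMS than in CTR. The summed unlogged level of the list was 908, 272, 289 and 942. Of the 9 adventitial fibroblast markers matched, CTR was the lowest array for 6, and 2 were above VAS in VAD (median -0.11). In BMS, 9 were above CTR (median 1.21), among them Serpinf1 (9.98, 9.64, 8.36 and 10.35) and Cd34 (10.38, 10.22, 9.01 and 10.72). Their summed level was 17973, 16717, 13931 and 19299. Dcn, between 12.42 and 12.62, and Dpt, between 12.34 and 12.58, led the list and stood above Acta2 on every array. Levels of different probe sets were not calibrated against each other, so neither this order nor the sums rank amounts of RNA. Lpl, Cd36, Scd1 and 7 of the 11 sterol enzymes were also lowest in CTR, but how many of all named genes were so was not counted. The part of these cells in the differences of Scd1, Elovl6, Lpl, Cd36 and the sterol enzymes was not tested.

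Beside Fabp4, which was low in CTR and BMS, several leukocyte markers were low too. S100a9 stood at 9.21, 9.19, 6.47 and 6.93, S100a8 at 8.08, 7.74, 6.08 and 5.77, Ptprc at 7.47, 7.39, 5.97 and 6.21, and the macrophage gene Chil3 at 6.49, 6.64, 5.49 and 5.54. The T cell gene Cd3e was not: it stood at 8.99, 9.69, 9.35 and 8.93. Of the 9 lymphocyte and granulocyte markers matched, 8 were lower in CTR than in VAS, 3 were below the filter on every array, and the summed level was 2054, 2206, 1203 and 1059. For the 8 macrophage markers, led by Cd68 and Mertk, it was 1132, 1151, 816 and 822, with Marco, Siglecf and Adgre1 below the filter. For the 10 endothelial markers the summed level was 2767, 2421, 2485 and 2715, with Emcn below the filter. Pecam1 stood at 8.27, 8.50, 8.09 and 8.33, and Ednrb at 10.38, 9.78, 10.16 and 9.87. Beside Lpl and Cd36, which capillary endothelium also uses, 8 of these 10 markers were higher in BMS than in CTR (median 0.27). CTR was the lowest array for 5 of the 10, VAD for 3, VAS for 1 and BMS for 1. Tek, an endothelial receptor, had the largest difference of the list in BMS against CTR (1.42). It stood at 7.45, 6.86, 6.72 and 8.14. Markers of lipofibroblasts and alveolar fibroblasts, the lipid-storing cells of the alveolar wall, summed to 10130, 11049, 8605 and 9769, led by Inmt and Mfap4. Whether any of these cells carried the Fabp4 difference was not tested.

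**Figure D4:**
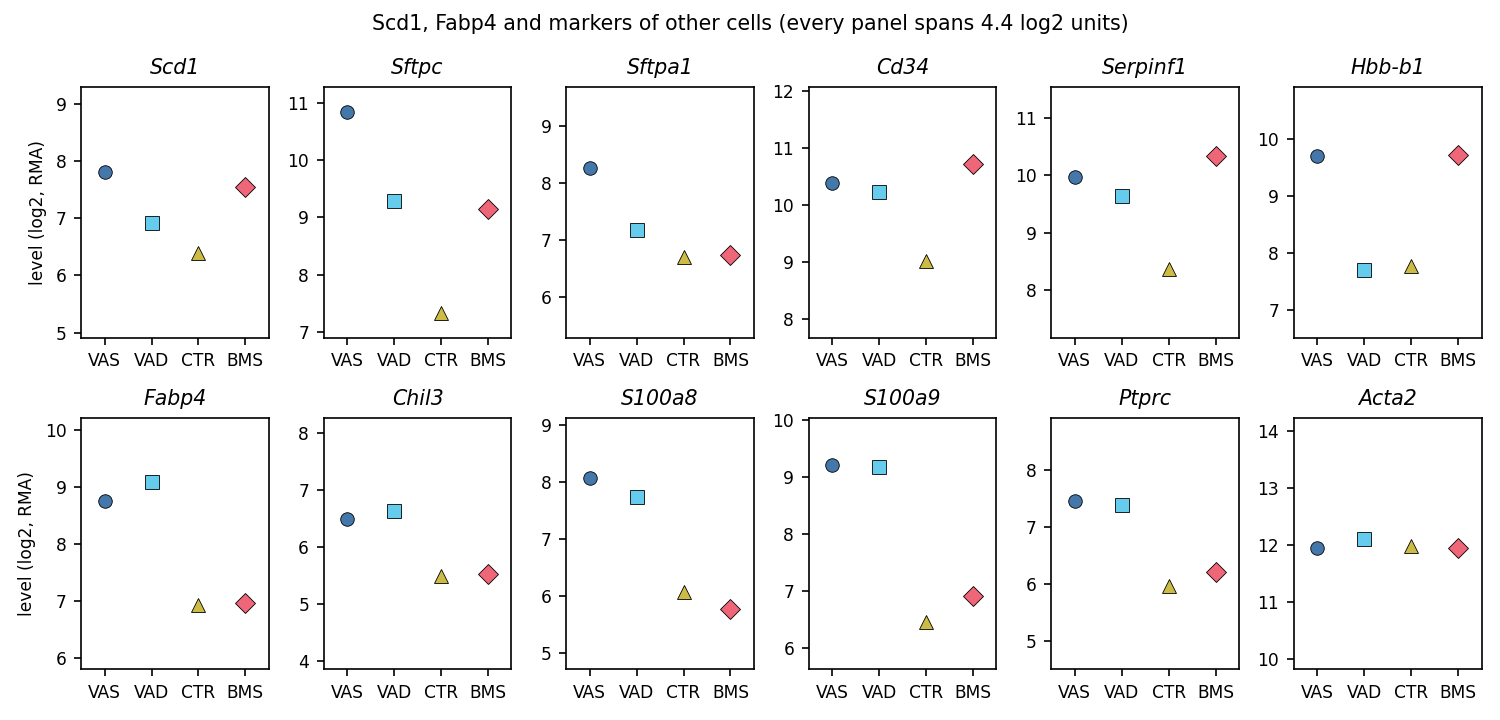
Levels (log2, RMA) of Scd1, Fabp4 and marker genes on the 4 arrays, 1 symbol per array; every panel spans the same range. Scd1 runs from 6.39 in CTR to 7.82 in VAS, Sftpc from 7.32 to 10.86 with the same lowest and highest arrays, Fabp4, Chil3, S100a8, S100a9 and Ptprc are lower in CTR and BMS, and Acta2 stays between 11.95 and 12.12.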

How the data were processed

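RNA of sorted airway smooth muscle cells, pooled from 3 mice per group, was measured on 4 Affymetrix arrays, 1 per group, and groups come from the sample titles. The deposited log2 values were made by the authors with RMA (in affy 1.36.1 and R 2.15.1), per the submitters' processing notes. It is not stated if other arrays entered. RMA gives arrays like distributions, which hides any shift of most genes together, and with no scanner intensities used, detection above background is unknown. The number of arrays limits the precision.

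Probe sets were named through GEO's platform annotation, which gave 23185 of 25206 a symbol. The filter kept genes whose highest value reached 6.05 (12395 genes, 53.5%). All 33 members are given whether past it or not. Differences of single arrays carry no test. limma 3.58.1 in R 4.3.3 (lmFit, eBayes) gave the joint fit, checked on simulated data. Python 3.11.15, numpy 2.4.6, pandas 2.3.3 and matplotlib 3.10.9 were used. Of 125 other pathway genes in 8 lists, 109 matched. From those lists, genes past the filter were named when 2-fold apart or the largest of their list in a comparison. Markers were named when among the 2 highest of their list, or 2-fold apart in a comparison where they stand beside a member. Not every such marker was given, and Pi16, Clec3b, Scara5, Pdgfra and Slc34a2 were left out. Cpt1a, Chil3, Sftpb and the markers named for lying below the filter were named outside that rule, after their values were seen.

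Members and lists were chosen with earlier results of these data known. The promoter windows, motifs and the counts of genes whose arrays did not overlap, of lowest arrays and of turned signs were also chosen after the values were seen. Alternatives were other normalizations, filters, folds, the other control, other limma settings and leaving out each array.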

Additional observations from a re-analysis of the deposited data

How the results depend on the processing

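Quantile normalization again and cyclic loess moved the differences of the 33 genes by 0.05 at most (log2, rounded), and changed no list median by over 0.1 and no count of genes past 1.5-fold; the median of all named genes stayed between -0.0077 and 0.0178 in the 3 comparisons. With the other experiment's control, the uptake and storage median was 0.23 in VAD and -0.14 in BMS, and the fatty acid synthesis median in BMS was 0.12. Scd1 then turned to 0.52 in VAD and -0.27 in BMS, Me1 to 0.0170, Ppargc1a to 0.15 and Cidea to 0.0427 in VAD, and Klf15 to 0.31 in BMS; the cause was not tested. These 6 had been at least 1.5-fold. Among all 66 differences of the 33 genes within the experiments, 27 took the opposite sign with that control, 14 in VAD and 13 in BMS. The share of all named genes that did so was not counted, so the 27 cannot be read as particular to these genes. Over the genes past the filter only, the sterol enzyme median was 0.33 in BMS and -0.31 between the controls, since Idi1, Fdps, Lss and Cyp51 leave it. At 2-fold in place of 1.5-fold, 0 genes in VAD, 1 in BMS and 2 between the controls were past the threshold, and with the filter at 7.67 there was 1 in VAD.

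The joint limma fit called 0 of the genes it tested under each of its alternatives (33 without a filter, 18 with the filter at the 75th percentile, 27 otherwise). At an unadjusted p of 0.05 between 0 and 3 passed, 0 when VAD or BMS was left out, and the lowest adjusted p of any gene ranged from 0.24 to 1. When an array is left out, the lone array of its side is assumed to vary like the others. Those fits also had no experiment block, so they differ from the main fit in more than the array. No paired analysis was possible because the labels give no replicate numbers by which mice or arrays could be paired; the block in the joint fit is the experiment. With 1 array per group, no difference within an experiment can be set against a spread between mice, and the 4 sterol enzymes below the filter have no known detection.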
